A study of Mus musculus with 18 samples.

Results

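The 4 mouse alkaline phosphatase genes, Alpl, Alppl2, Akp3 and Alpi, were followed across 6 pluripotent stem cell cultures profiled by RNA-seq. They were taken by name from the 35773 genes in the count tables. They were chosen by their depth-normalized counts in these 6 groups, which were already known, so the levels and fold changes of the 4 genes are given as a description, with no test. Of the 4, Alpl and Alppl2 passed the filter on low values (10 or more counts in 3 or more samples), which kept 16901 genes; Akp3 and Alpi did not. Alppl2 passed it only through the samples in which it was high.

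Alkaline phosphatases are enzymes of the outer cell surface that remove phosphate groups from many substrates, and a glycosylphosphatidylinositol (GPI) lipid holds them in the membrane. Alpl encodes the tissue-nonspecific enzyme of bone, liver and kidney, which breaks down inorganic pyrophosphate and the phosphorylated form of vitamin B6. Alppl2 encodes the enzyme of the early embryo, Akp3 that of the duodenum and Alpi that of the intestine. Staining for this activity has long been used to mark pluripotent cells and primordial germ cells.

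The study asked how advanced pluripotent stem cells (ASCs) stand between naive and primed cells, and profiled 6 groups of 3 biological replicates each. ESCs were naive embryonic stem cells in 2iL medium, with inhibitors of MEK and GSK3 and leukemia inhibitory factor (LIF). AFSCs were primed cells from blastocysts kept in Activin A and FGF2, and ASCs were derived from AFSCs in ABCL medium, which combines Activin A, BMP4, the GSK3 inhibitor CHIR99021 and LIF. ESC-ASCs were ESCs converted in ABCL, EpiLCs were epiblast-like cells and EpiSCs were epiblast stem cells. All samples carried the labels 129S2/SvPasCrl and wild type, while the methods describe embryos of a mixed background and ASCs selected as colonies positive for the GOF-GFP reporter. Nothing in the sources used here said whether the 3 replicates came from separate lines, so the spread between them may be technical.

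The 3 ESC-ASC samples held 17813619 to 18071600 counts and the other 15 samples 4961934 to 9906473, so that depth and the ESC-ASC group cannot be told apart. Levels are normalized read counts per kb, that is, counts divided by DESeq2 size factors and by the exonic length in kb. The 10 naive markers summed to 4346 to 10701 in ESCs, ASCs and ESC-ASCs, and to 37.7 to 900.2 in EpiLCs, AFSCs and EpiSCs. The 10 primed markers summed to 406.1 to 675.4 in the former 3 groups and to 5303 to 7561 in the latter, so the sums went with the labels. Single markers did not all do so. The primed marker T had a mean of 5.68 in EpiLCs and 20.8 in ESCs. Of the naive markers, Fgf4 was at 449 in EpiLCs beside 482 in ASCs. Dppa3 was at 2439 in ESCs, 252 in ASCs and 150 in EpiLCs. In such bulk samples, fewer cells expressing a gene and less RNA per cell cannot be told apart.

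Alpl lies on chromosome 4 (GRCm38, chr4:137741733-137796384, minus strand), with 4033 bases of exon. The other 3 genes lie within 41.2 kb of chromosome 1: Alppl2 at chr1:87086694-87089928 and Alpi at chr1:87098002-87101606, both on the minus strand, and Akp3 at chr1:87124973-87127912 on the plus strand. The coding sequences of the 3 clustered genes were 78.5% to 81.8% identical to each other, and 65.1% to 65.9% identical to that of Alpl. No 50-base stretch of Alpl transcripts occurred in the other genes, and Alppl2 shared 1 such stretch with Alpi and none with Akp3. Akp3 and Alpi were closer, sharing 35 stretches, 1.57% of those in Akp3. The authors kept reads that map to several places, so reads within a shared stretch can be counted for both genes. No exon of the 4 genes overlapped an exon of another gene.

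The promoters are shown because the 3 neighbours on chromosome 1 share sequence before their start sites but were read at different levels in the ABCL cultures. There Alppl2 had 13 to 34 counts in a sample and the other 2 genes at most 1. In the other groups all 3 were at or near 0. The 200 bases before each RefSeq start (GRCm38.p6) are given 5′ to 3′ on the strand of the gene. Capitals mark the stretches of at least 10 bases present in all 3 promoters. Alppl2 is from chr1:87089929-87090128 (minus strand), Alpi from chr1:87101607-87101806 (minus strand) and Akp3 from chr1:87124754-87124953 (plus strand).
Alppl2: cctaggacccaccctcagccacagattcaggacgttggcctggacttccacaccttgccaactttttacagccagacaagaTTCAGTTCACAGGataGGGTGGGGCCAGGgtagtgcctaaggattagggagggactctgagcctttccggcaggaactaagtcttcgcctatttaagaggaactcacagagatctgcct
Alpi: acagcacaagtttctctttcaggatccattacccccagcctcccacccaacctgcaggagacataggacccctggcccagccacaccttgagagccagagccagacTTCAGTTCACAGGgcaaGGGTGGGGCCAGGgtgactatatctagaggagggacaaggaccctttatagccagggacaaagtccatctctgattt
Akp3: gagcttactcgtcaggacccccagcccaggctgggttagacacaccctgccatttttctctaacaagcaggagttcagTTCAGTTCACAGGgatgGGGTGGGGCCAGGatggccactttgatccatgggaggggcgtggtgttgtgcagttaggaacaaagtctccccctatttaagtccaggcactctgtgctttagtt
Both shared stretches were 13 bases long and stood in the same order, with the second beginning 103 bases before the start of Alppl2, 77 before that of Alpi and 105 before that of Akp3. The second holds GGGTGGGG, a GT box of the kind that SP and KLF factors are known to bind, which on either strand occurred in 9.99% of the 32851 promoter windows of 300 bases (250 before the start and 50 after). The TCF/LEF motif CTTTGAT occurred in 3.73% of windows and, among these 3, in that of Akp3. On the strand of the gene, 11 windows held the whole second stretch and 5 the first, these 3 included.

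Alpl has 2 starts in RefSeq, 29.9 kb apart, and the counts per gene do not separate them. The upstream start is shown because its makeup differs from that of the cluster, with the GC box GGGCGG in capitals (chr4:137796385-137796584, minus strand).
Alpl upstream: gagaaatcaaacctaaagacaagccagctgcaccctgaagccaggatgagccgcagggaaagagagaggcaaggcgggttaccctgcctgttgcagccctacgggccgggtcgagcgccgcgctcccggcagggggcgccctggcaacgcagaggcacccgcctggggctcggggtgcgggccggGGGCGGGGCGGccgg
This window was 70.0% G and C and held 26 CG dinucleotides, more G and C than 90.4% of the promoters, whereas the 3 cluster promoters were 53.7% to 57.0% G and C with 1 to 6 CG dinucleotides. GGGCGG occurred 3 times in the upstream Alpl window, 2 of them overlapping before the start, and in none of the 3 cluster windows; 35.7% of all windows held it on either strand. The downstream Alpl window, with 54.3% G and C, held GGGTGGGG once. Searches on both strands for AAGGTCA (nuclear receptor half-site, 4.72% of windows), TTCNNNGAA (STAT, 8.30%), CACGTG (E-box, 7.15%) and CCAAT (37.4%) found no match in the 5 windows. The letters TATAAA, found on either strand in 13.6% of windows, occurred in those of Alpi and downstream Alpl, both times on the strand opposite to the gene. These matches describe the letters only, and binding was not measured.

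Alpl supplied nearly all alkaline phosphatase transcripts and was high in the 3 groups with naive markers and low in the 3 primed or EpiLC groups. In ASCs its level was 743, 713 and 652 normalized read counts per kb in replicates 1 to 3, and in ESCs it was 846, 519 and 537. The ASC samples therefore lay inside the range of the ESC samples, of which replicate 1 stood above all ASCs and replicates 2 and 3 below them. The means were 703 ± 46.2 in ASCs and 634 ± 184 in ESCs (SD, n = 3), and the log2 fold change of ASCs over ESCs was 0.13 with a standard error of 0.18. ESC replicate 1 was also the shallowest library of the 18, and without it the ESC mean was 528 and the log2 fold change 0.38 (SE 0.16).

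In ESC-ASCs the Alpl level was 273, 308 and 264, below every ESC and ASC sample. The mean of 282 ± 23.2 (SD, n = 3) was lower than in ESCs by a log2 fold change of -1.17 (SE 0.18) and lower than in ASCs by -1.31 (SE 0.18). Without ESC replicate 1 the value against ESCs was -0.93.

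The 3 EpiLC samples had Alpl levels of 79.4, 78.1 and 72.2, the AFSC samples 49.4, 30.1 and 52.4, and the EpiSC samples 27.7, 30.4 and 27.5. EpiLC samples stood above all AFSC and EpiSC samples, while AFSCs and EpiSCs overlapped through AFSC replicate 2. Group means were 76.5 ± 3.83, 44.0 ± 12.1 and 28.5 ± 1.63 (SD, n = 3 each). Relative to ESCs the log2 fold change was -3.04 for EpiLCs (SE 0.19), -3.84 for AFSCs (SE 0.20) and -4.47 for EpiSCs (SE 0.21). From AFSCs to the ASCs derived from them, Alpl was higher by a log2 fold change of 3.97 (SE 0.20), a 15.7-fold difference. The paper points to cells positive for alkaline phosphatase staining in AFSC cultures. That stain reads enzyme activity, whereas these levels are RNA, so the low level in AFSCs does not stand for absent activity.

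The order of the 6 groups was therefore ASCs and ESCs, which overlapped, then ESC-ASCs, EpiLCs, and last AFSCs and EpiSCs, which overlapped. The lowest sample of the upper 3 groups, at 264, was 3.33 times the highest of the lower 3, at 79.4. Within the transcriptome of each culture, Alpl ranked 708 of 22735 genes with a count in ASCs, 934 of 20928 in ESCs and 1980 of 21948 in ESC-ASCs. In the other cultures it ranked 5804 of 22132 in EpiLCs, 7904 of 20845 in AFSCs and 9222 of 20887 in EpiSCs, so that even in EpiSCs it stood above 55.8% of the genes with a count. The lowest raw count behind these values was 85, in EpiSC replicate 1.

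**Figure D1:**
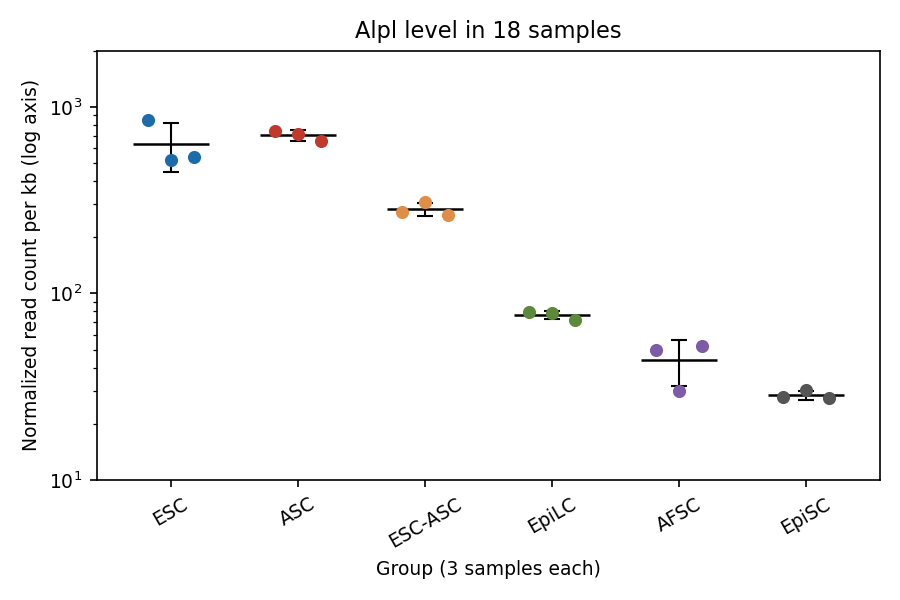
Alpl level in each of the 18 samples, as normalized read count per kb on a log axis, by group. Points are samples, horizontal lines the mean of 3 and error bars the SD; the lowest ESC-ASC sample, at 264, sits above the highest EpiLC sample, at 79.4.

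Alppl2 was read almost only in the 2 groups grown in ABCL. Its raw counts were 34, 13 and 15 in ASCs and 24, 19 and 23 in ESC-ASCs, against 0, 1 and 0 in ESCs and 0 in all 9 samples of EpiLCs, AFSCs and EpiSCs. Of 129 counts over the series, 128 were thus in ABCL cultures, and every ABCL sample stood above every other sample. The ESC-ASC libraries were also the deepest, and the ASC libraries, at 7165615 to 8148294 counts, were of the depth of the rest. The part of depth in the Alppl2 counts was not tested.

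Per kb and after normalization, Alppl2 was at 16.3, 5.98 and 7.29 in ASCs and at 5.38, 4.11 and 5.13 in ESC-ASCs. The means were 9.85 ± 5.59 and 4.87 ± 0.669 (SD, n = 3). Summed over the group, the ASC level was 50.1 times that of ESCs, with a 95% counting interval of 8.66 to 2010 because it rests on 1 ESC count. Relative to the limit that a count of 0 allows, 3 counts over the group, Alppl2 was at least 21.6-fold higher in ASCs than in EpiLCs, at least 19.0-fold higher than in AFSCs and at least 21.7-fold higher than in EpiSCs. For ESC-ASCs the ratio to ESCs was 24.8, with an interval of 4.31 to 996, and the bounds were 10.7, 9.41 and 10.8. These intervals and limits cover counting error only.

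Between the ABCL groups the log2 fold change of ESC-ASCs over ASCs was -1.0 (SE 0.40). It rested on ASC replicate 1, without which it was -0.44 (SE 0.38). Alppl2 had the level of a sparsely read gene even here: it was 1.38% of the summed per-kb level of the 4 genes in ASCs and 1.70% in ESC-ASCs, and Alpl made up 98.6% and 98.3%. In ASCs it stood above 40.7% of the genes with a count, where Alpl stood above 96.9%.

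Akp3 had 4 counts in the whole series, 2 in ESC replicate 2 and 1 each in ASC replicates 1 and 3. Alpi had 0 counts in all 18 samples, out of 172614912 counts, which allows up to 3 counts in that total by counting error. Differences between groups were not detectable at this depth for either gene. The pseudogene Akp-ps1, 15.6 kb from Alppl2, had 5 counts in 5 samples. Markers of other cell types were measured beside these genes. Of the 8 intestinal epithelium markers Fabp2 was at 0 in every sample, and Sis in all ESC and EpiSC samples. Their sum was 304.3 to 505.1 in ASCs, 141 to 148 in ESCs, 65.6 to 74.2 in ESC-ASCs and 9.14 to 34.6 in the other groups. In ASCs it was mostly Cdx1, at 370 ± 111, beside 137 ± 3.80 in ESCs and 45.0 ± 8.50 in ESC-ASCs. Both groups grown in ABCL stood above ESCs in Anpep, at 38.1 ± 9.40 in ASCs and 17.5 ± 2.46 in ESC-ASCs beside 2.65 ± 0.807, and so did EpiLCs, at 19.6 ± 6.09, AFSCs, at 10.2 ± 2.01, and EpiSCs, at 6.04 ± 0.342. Muc2 was at 4.53 ± 1.88 in ASCs and 4.10 ± 0.652 in ESC-ASCs, above every sample of the other groups, of which ESCs had 0.502 ± 0.156 and EpiLCs 1.47 ± 0.160 (SD, n = 3). In Anpep and Muc2, as in Alppl2, every ABCL sample stood above every ESC sample. The other intestinal markers did not share this pattern. Cdx1 was lower in ESC-ASCs than in ESCs, and Vil1 had means of 2.16 in EpiSCs to 4.44 in ESC-ASCs, with 3.83 in ESCs. Lct and Cdh17 had means of at most 0.628 and 0.771 in any group. The part of these markers in the level of Alppl2 was not tested.

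Markers of extraembryonic and germ cell types were read beside Alppl2 and Alpl. The 8 endoderm markers summed to 24.7 to 32.1 in ASCs and ESC-ASCs, 8.59 to 11.7 in ESCs, 3.33 to 11.4 in EpiLCs and AFSCs and 62.6 to 65.1 in EpiSCs, where Alppl2 had no count. Most of the EpiSC sum was Sox17, at 34.6 ± 2.76, and Gata6, at 26.5 ± 3.09. Hnf4a was at 10.2 ± 1.91 in ASCs, 9.31 ± 1.24 in ESC-ASCs and 0.93 ± 0.67 in ESCs (SD, n = 3). Its mean was 0.0739 in EpiLCs and 0 in AFSCs and EpiSCs. Gata4 was at 8.14 ± 0.631 in ASCs, 13.1 ± 1.40 in ESC-ASCs and 5.03 ± 0.885 in ESCs. In EpiLCs, AFSCs and EpiSCs its mean was 0.407 to 1.84. Ttr was at 0 in ASCs and ESC-ASCs and Afp at 0.107 and 0.05. The 8 trophoblast markers summed to 123.2 to 163.9 in ASCs and ESC-ASCs, 95.5 to 135.9 in ESCs and 19.9 to 36.5 elsewhere, with Tpbpa at 0 in ESC-ASCs and ESCs. The sum hid members that differed in opposite directions. Hand1 was at 38.9 ± 7.77 in ASCs and at 0.329 to 1.57 on average in the other 5 groups, and Gata3 was at 13.6 ± 2.41 in ASCs, 5.03 ± 0.809 in ESCs and 0.169 ± 0.193 in ESC-ASCs. Ascl2 was at 141 ± 5.36 in ESC-ASCs and 42.1 ± 10.6 in ASCs beside 14.2 ± 4.69 in ESCs, whereas Cdx2 was at 94.9 ± 21.0 in ESCs, 51.1 ± 8.80 in ASCs and 0.368 ± 0.464 in ESC-ASCs (SD, n = 3). Germ cell markers, another setting of alkaline phosphatase activity, summed to 440.5 to 1493 in ESCs, ASCs and ESC-ASCs and 41.0 to 211.7 elsewhere. Not every member split this way. Tfap2c did, with means of 144.9 to 270.7 in the former groups and 11.95 to 15.89 in the latter. Ddx4 had a mean of 32.8 in EpiLCs, beside 6.58 in ESCs, 25.6 in ASCs and 69.7 in ESC-ASCs. Dnd1 had its highest mean in EpiLCs, at 60.6, beside 22.6 in ESCs. Kit had a mean of 118 in EpiSCs and 97.7 in ESC-ASCs. The part of the germ cell markers in the levels of Alppl2 and Alpl was not tested. Of the bone and stromal markers, the other setting in which Alpl is prominent, Ibsp was at 0 in every sample and Runx2 at or below 0.524, while Spp1 made up most of the sum in ESCs, ASCs and ESC-ASCs. Spp1, which encodes the secreted protein osteopontin, had means of 3118 in ESCs, 2648 in ASCs and 2462 in ESC-ASCs, and 414 in EpiLCs, 170 in AFSCs and 5.89 in EpiSCs, so that it was high in the groups in which Alpl was high. Col1a1 was at 56.4 ± 16.6 in ASCs, 22.4 ± 7.56 in ESCs, 21.0 ± 6.54 in AFSCs and 1.16 ± 0.366 in ESC-ASCs (SD, n = 3). The part of these markers in the level of Alpl was not tested.

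**Figure D2:**
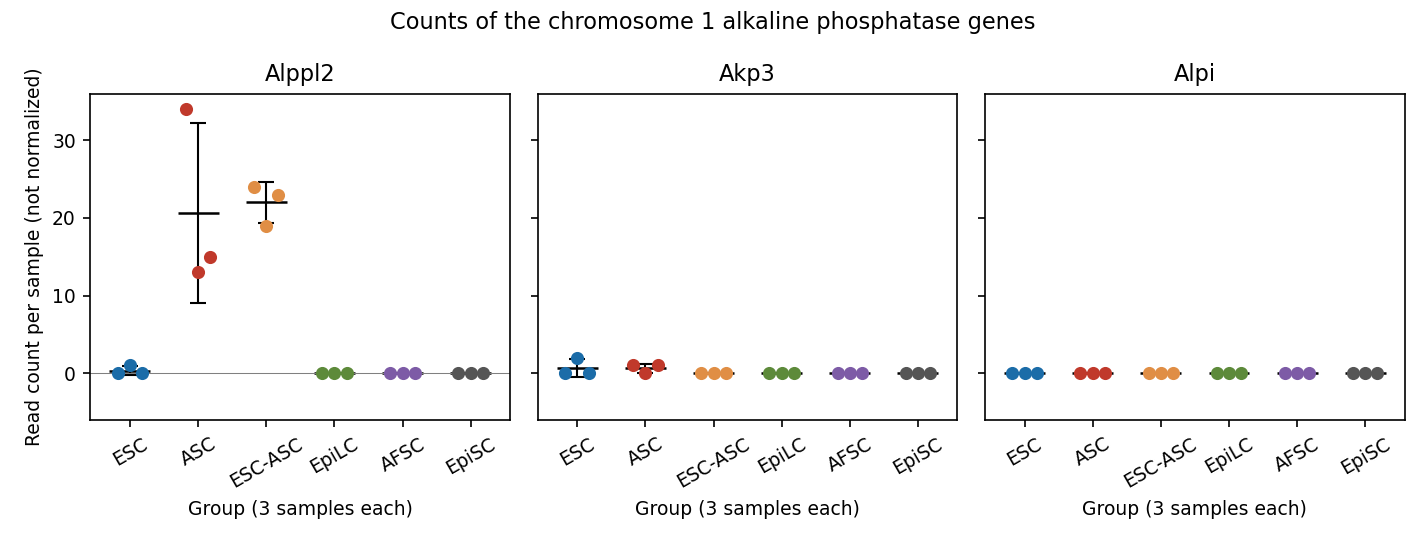
Raw read counts, not normalized, of Alppl2, Akp3 and Alpi in each of the 18 samples by group, with the mean of 3 (line) and SD (bar). Alppl2 reached 13 to 34 counts in ASC and 19 to 24 in ESC-ASC samples; Akp3 reached at most 2 and Alpi 0.

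The 5 genes whose pattern over the 18 samples was most like that of Alpl included Tet2, Kat6b, Mmrn2 and Hoxb13, with Pearson r of 0.991, 0.990, 0.986 and 0.982 on the log2 scale with a pseudocount of 0.1. Tet2, an enzyme that oxidizes methylated cytosine, was at 51.0 in ESCs, 77.7 in ASCs, 24.3 in ESC-ASCs, 5.78 for EpiLCs, 3.48 for AFSCs and 2.37 for EpiSCs. Kat6b, a histone acetyltransferase, was at 149, 158, 92.3, 20.9, 12.6 and 9.37 in the same order. For Alppl2 the closest were Mir7011, Pcolce2, Hnf4a, D13Ertd608e and Gm13267, with r of 0.969, 0.958, 0.949, 0.945 and 0.944. The points share libraries and groups, and these correlations were picked as the highest of all genes tested.

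Genes of related function were then compared between groups in edgeR (quasi-likelihood F test, p adjusted by Benjamini and Hochberg over all genes tested), and called where the adjusted p was below 0.05 and the log2 fold change beyond 1. The 6 lists held 84 genes, of which 83 were found and 78 tested. In ASCs against ESCs 27 of the 78 were called, or 34.6% beside 25.8% of all genes tested. Of these, 21 were higher, beside 18.5% of all genes, and 6 lower, beside 7.26%. In EpiLCs against ESCs it was again 27 (34.0% of all genes), 12 higher (18%) and 15 lower (15.9%), the percentages being those of all genes tested. In the same form, AFSCs against ESCs gave 36 called (39.5%), 23 higher (19.9%) and 13 lower (19.6%). EpiSCs against ESCs gave 34 (41.0%), 17 higher (19.0%) and 17 lower (22.0%). ESC-ASCs against ESCs gave 38 (36.4%), 20 higher (19.3%) and 18 lower (17.1%). ASCs against AFSCs gave 32 (39.4%), 16 higher (22.7%) and 16 lower (16.7%), and ESC-ASCs against ASCs gave 20 (24.5%), 5 higher (8.04%) and 15 lower (16.5%). These comparisons share their control samples.

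Few of the enzymes that build and attach the GPI anchor of alkaline phosphatase were called. Of 28 tested, 1 was called in ASCs against ESCs (25.8% of all genes), 4 in EpiLCs (34.0%) and 8 in AFSCs (39.5%). In EpiSCs it was 5 (41.0%) and in ESC-ASCs 6 (36.4%). ASCs against AFSCs gave 6 (39.4%) and ESC-ASCs against ASCs 4 (24.5%). These counts were 3.57% to 28.6% of the 28, each below the share of all genes. The exception in size was Piga, the X-linked gene for the catalytic subunit of the first step. Its level was 104 ± 6.29 in ESCs, 79.7 ± 9.12 in ASCs and 75.8 ± 5.63 in ESC-ASCs (SD, n = 3). EpiLCs had 21.8 ± 3.90, AFSCs 14.1 ± 2.09 and EpiSCs 17.1 ± 3.62, with no sample reaching those of the other 3 groups. Against ESCs it was lower by log2 fold changes of -2.24 in EpiLCs (SE 0.17, adjusted p = 1.26e-09), -2.88 in AFSCs (SE 0.18, adjusted p = 4.91e-11) and -2.60 in EpiSCs (SE 0.17, adjusted p = 1.16e-10). In ASCs it was higher than in AFSCs by 2.48 (SE 0.17, adjusted p = 5.59e-10), and it was not called in ASCs or ESC-ASCs against ESCs (log2 fold changes -0.40 and -0.47). Pigg, which modifies the anchor, was the gene called in ASCs against ESCs, at 1.37. Pigl, which acts on the second step, was higher in ASCs than in AFSCs by 1.82 and lower in EpiSCs than in ESCs by -1.77.

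Of 23 other proteins held by the same anchor, 10 to 17 were called in each comparison, or 43.5% to 73.9% beside 24.5% to 41.0% of all genes tested. The directions were mixed. In ASCs against ESCs 11 were higher and 4 lower, beside 18.5% and 7.26% of all genes tested. In ESC-ASCs against ASCs 2 were higher and 8 lower, beside 8.04% and 16.5%. Tdgf1, the NODAL co-receptor, was at 2237 ± 452 in ASCs and 2226 ± 162 in ESC-ASCs against 635 ± 78.0 in ESCs, a log2 fold change of 1.80 in both comparisons (adjusted p = 1.27e-07 and 5.36e-08). Gpc3, a heparan sulfate proteoglycan, was at 922 ± 214 in ASCs, 367 ± 50.2 in ESC-ASCs and 108 ± 28.9 in ESCs, higher in ASCs by 3.09 (adjusted p = 9.76e-09). Folr1, a folate receptor, was higher in ASCs than in AFSCs by 1.83 and lower in ESC-ASCs than in ASCs by -2.20. Cd59a, an inhibitor of complement, went the other way from Alpl in AFSCs, at 568 ± 94.9, and EpiSCs, at 209 ± 17.5. ESCs had 18.3 ± 1.19 and ASCs 14.2 ± 2.66. In EpiLCs and ESC-ASCs Cd59a was lower than in ESCs, as Alpl was. With 1 sample left out at a time, its log2 fold changes were -2.61 to -2.28 and -1.71 to -1.58.

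**Figure D3:**
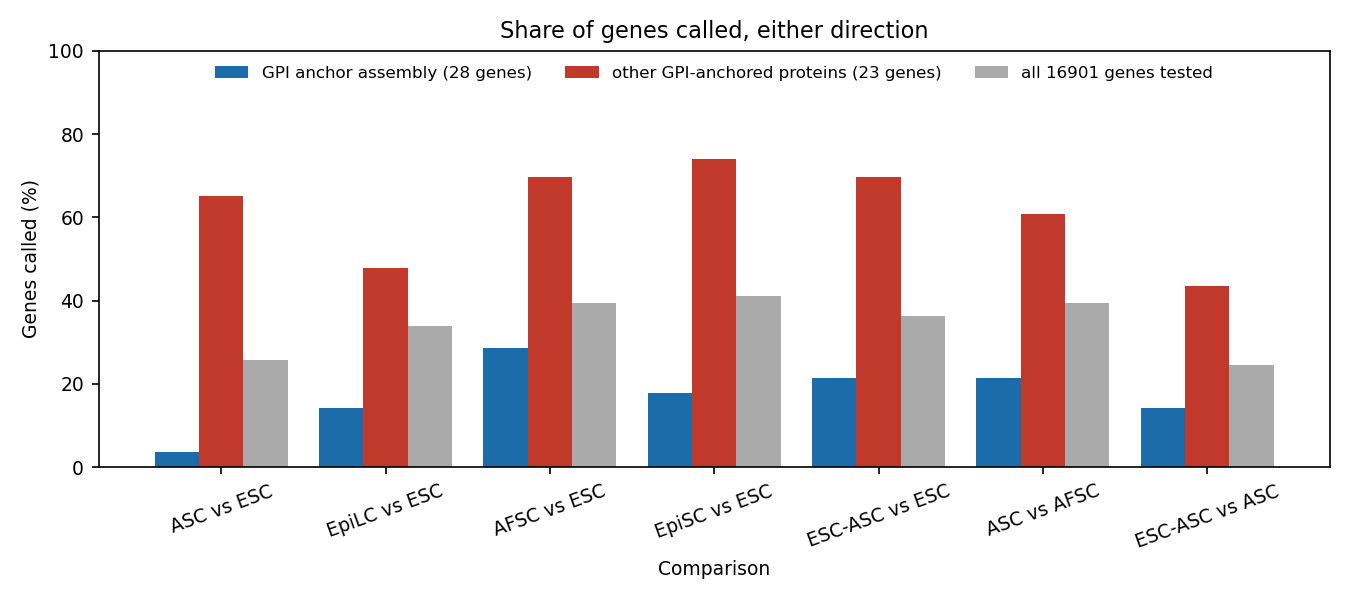
Percentage of genes called in either direction in each of the 7 comparisons, for the 28 GPI anchor assembly genes, the 23 other GPI-anchored proteins and all 16901 genes tested. The assembly genes stay at 3.57% to 28.6% and the anchored proteins at 43.5% to 73.9%.

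Among the 8 genes of phosphate and pyrophosphate handling, 2 to 5 were called in each comparison, or 25.0% to 62.5% beside 24.5% to 41.0% of all genes tested. Phospho1, a phosphatase that acts with the Alpl enzyme in mineralization, was at 70.3 ± 4.60 in ESCs, 86.2 ± 29.7 in ASCs and 28.3 ± 4.51 in ESC-ASCs, and the level was 9.93 ± 2.44 for EpiLCs, 11.5 ± 2.94 for AFSCs and 23.9 ± 3.99 for EpiSCs (SD, n = 3). Like those of Alpl, its ASC and ESC samples overlapped and its EpiLC, AFSC and ESC-ASC samples lay below both. It was lower than in ESCs by log2 fold changes of -2.82 in EpiLCs (SE 0.28, adjusted p = 6.66e-08), -2.60 in AFSCs (SE 0.28, adjusted p = 1.43e-07), -1.57 in EpiSCs (SE 0.25, adjusted p = 2.16e-05) and -1.33 in ESC-ASCs (SE 0.24, adjusted p = 8.52e-05). ESC-ASCs were below ASCs by -1.60 (SE 0.23, adjusted p = 1.75e-05), and ASCs were above AFSCs by 2.86 (SE 0.27, adjusted p = 4.03e-08). Unlike Alpl, whose lowest group was EpiSCs, Phospho1 had a higher mean in EpiSCs than in EpiLCs and AFSCs, a difference that was not tested. Xpr1, a phosphate exporter, was higher in ASCs than in ESCs by 1.72 and than in AFSCs by 2.09.

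In vitamin B6 handling, the Alpl enzyme frees pyridoxal outside the cell and pyridoxal kinase, Pdxk, phosphorylates it within. Pdxk was at 315 ± 92.4 in ESCs, 94.5 ± 7.30 in ASCs and 123 ± 7.49 in ESC-ASCs, and lower still in EpiLCs (59.6 ± 9.56), AFSCs (54.5 ± 18.2) and EpiSCs (44.8 ± 3.02). It fell against ESCs in all 5 comparisons, by log2 fold changes of -1.76 in ASCs (SE 0.22, adjusted p = 3.33e-06), -1.38 in ESC-ASCs and -2.40 to -2.83 in the other groups. ASCs, whose Alpl samples lay within the ESC range, were therefore below ESCs in Pdxk. Pdxp, the fourth gene listed, was not analysed here.

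Among the 9 tested genes for extracellular nucleotides, another substrate class of these enzymes, 6 were called higher in ASCs than in ESCs and none lower, beside 18.5% and 7.26% of all genes tested. In ESC-ASCs against ESCs 7 were higher and 1 lower, beside 19.3% and 17.1%. Calls were also frequent outside the ABCL groups. Against ESCs, 6 were called in EpiLCs, 6 in EpiSCs and 5 in AFSCs, beside 34.0%, 41.0% and 39.5% of all genes. In each of these groups 4 were higher, beside 18% of all genes in EpiLCs, 19.0% in EpiSCs and 19.9% in AFSCs. In the same order 2, 2 and 1 were lower, beside 15.9%, 22.0% and 19.6%. ASCs against AFSCs gave 3 higher and 4 lower, beside 22.7% and 16.7%. ESC-ASCs against ASCs gave 1 higher and 1 lower, beside 8.04% and 16.5%. Nt5e, which makes adenosine from AMP at the cell surface, was at 0.496 ± 0.433 in ESCs, 16.6 ± 5.79 in ASCs and 73.6 ± 24.3 in AFSCs. Enpp2, which makes lysophosphatidic acid, had 0 counts in ESCs and reached 154 ± 23.2 in EpiLCs. Of the 7 acid phosphatase genes, 1 to 3 were called in each comparison, or 14.3% to 42.9% beside 24.5% to 41.0% of all genes tested, a share near that of all genes. Acpp was at 15.5 ± 5.08 in ESCs and 9.16 ± 4.30 in ASCs, where ESC-ASCs had 2.39 ± 0.219, AFSCs 0.326 ± 0.0432 and EpiSCs 0.957 ± 0.197. It was higher in ASCs than in AFSCs by a log2 fold change of 4.74.

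**Figure D4:**
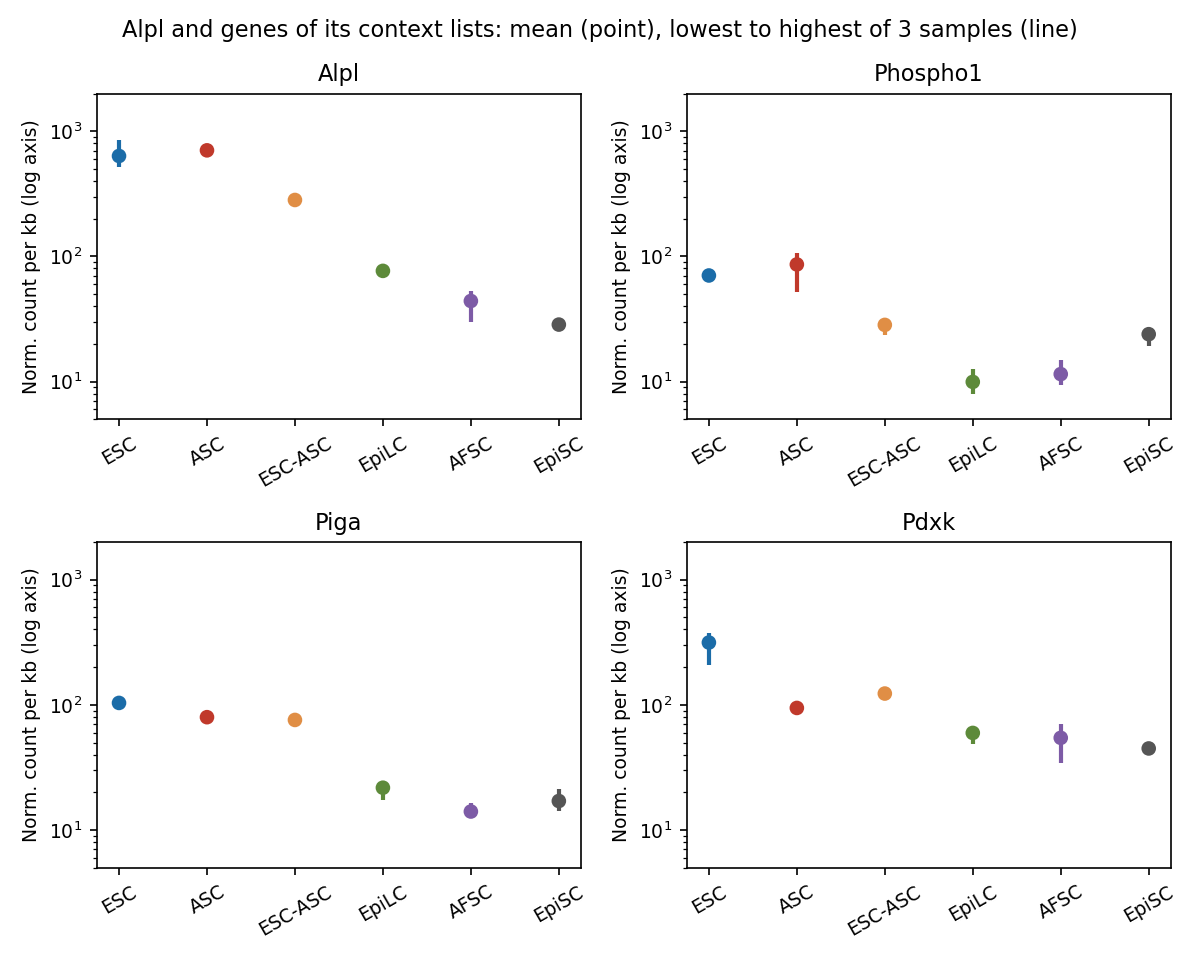
Levels of Alpl, Phospho1, Piga and Pdxk by group, as normalized read counts per kb on log axes of the same range. Points are means of 3 samples and lines run from the lowest to the highest sample; Piga falls from 104 in ESC to 14.1 in AFSC, and Pdxk is lower in ASC, at 94.5, than in ESC, at 315.

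The genes next to the members did not move as 1 block. Around Alpl, 8 other genes had exons within 200 kb and 6 were tested. Usp48, a deubiquitinase, was lower than in ESCs by log2 fold changes of -1.86 in EpiLCs, -1.43 in AFSCs and -1.80 in EpiSCs, and Rap1gap, a regulator of RAP1, by -1.66, -1.46 and -2.92. Both were higher in ASCs than in AFSCs, by 1.55 and 1.25, and were not called in ASCs or ESC-ASCs against ESCs, in which their log2 fold changes lay between -0.45 and 0.12. Eif4g3 went the other way, at 1.58 in AFSCs and 1.87 in EpiSCs against ESCs, and was lower in ESC-ASCs by -1.28. Ece1, an endothelin-converting enzyme, was higher than in ESCs by 1.34 in EpiLCs, 1.40 in AFSCs and 2.51 in ESC-ASCs, and was also called higher in EpiSCs. Hspg2, the gene for the basement membrane proteoglycan perlecan, was higher in ASCs than in ESCs by 1.71 and than in AFSCs by 1.99, and lower in ESC-ASCs than in ASCs by -1.80. It was lower than in ESCs by -1.36 in EpiLCs and -1.31 in EpiSCs. Gm13012 was higher than in ESCs by 1.63 in ASCs and 2.62 in ESC-ASCs, lower by -2.86 in AFSCs, and higher in ASCs than in AFSCs by 4.49. In EpiSCs, where it had no count, it was called lower. The call in ASCs against ESCs was lost without ASC replicate 2 or 3 or ESC replicate 2 or 3, and that in AFSCs without AFSC replicate 1 or 2. Gm13012 lies within Ece1 on the other strand, and the counting ignored strand, so reads in a shared stretch of exon would count for both. Whether their exons overlap was not tested. The counts did differ, since Ece1 was called higher in AFSCs and EpiSCs, where Gm13012 was called lower.

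Around the chromosome 1 cluster, 14 other genes lay within 200 kb and 6 were tested. Efhd1, an EF-hand protein gene, was at 14.6 in ASCs and 11.4 in ESC-ASCs, and 6.19 in ESCs, with 0.574 to 1.95 in the other groups. It was higher in ASCs than in AFSCs by a log2 fold change of 4.58 (SE 0.51, adjusted p = 2.62e-07) and than in ESCs by 1.16 (SE 0.33, adjusted p = 0.00697). In ESC-ASCs it was at 0.81 against ESCs and was not called. Efhd1os overlaps it on the other strand, and reads of the pair cannot be told apart. Gigyf2, which represses translation, was lower than in ESCs by -1.04 to -1.54 in EpiLCs, AFSCs and EpiSCs, and Dis3l2 and Eif4e2 were not called in any comparison. Ecel1, an endopeptidase gene, was at 2.96 in ASCs and 2.70 in ESC-ASCs beside 0.733 in ESCs, higher by 1.90 and 1.78, and was also called higher in EpiLCs, by 2.42, and in AFSCs, by 2.72. Chrnd, a subunit of the muscle acetylcholine receptor, was at 0 in ESCs and AFSCs, 0.866 in ASCs, 3.50 in ESC-ASCs, 1.07 in EpiLCs and 2.08 in EpiSCs, and was called higher in these 4 groups than in ESCs. Ecel1 and Chrnd had at most 22 and 28 counts in a sample. The call of Chrnd in ASCs was lost when any 1 of the ASC or ESC samples was left out, and that in EpiLCs without EpiLC replicate 2 or ESC replicate 3. With all samples, both were higher than in ESCs in the ABCL groups and in EpiLCs, in which Alppl2 had no count.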

How the data were processed

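RNA was poly(A)-selected and sequenced as paired-end libraries, and the authors aligned reads with TopHat2 to GRCm38 guided by Ensembl release 86. The deposited values are raw read counts per gene from featureCounts 1.5.0-p1, with pairs counted once, a minimum overlap of 10 bases, multi-mapping and multi-overlapping pairs kept and strand ignored, per the file headers. Samples were grouped by their titles. From the counts, levels were computed with DESeq2 1.42.0 size factors per kb, and comparisons with edgeR 4.0.16 (R 4.3.3, TMM, quasi-likelihood test, all 18 samples in 1 fit, 16901 genes reaching 10 counts in 3 or more samples, Benjamini-Hochberg per comparison). The fit was tested on simulated data. Totals per sample were 4961934 to 18071600, and intervals cover counting error only. Named genes were the 4 members, the 5 genes most alike to each member tested, genes called in the lists with the largest changes in either direction and without overlap, and tested neighbours within 200 kb. Of these, 1 gene is not reported here. The members and all lists were chosen with earlier results of these data known. Coding sequences and shared stretches came from GENCODE transcripts (Biopython 1.88) and promoters from RefSeq. Alternatives were DESeq2 size factors and the DESeq2 test, no filter on low counts, the replicate number as a block, each sample left out, no ESC-ASC samples, and other scalings of levels. Replicate numbers shared between groups were not used as pairs.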

Additional observations from a re-analysis of the deposited data

How the results depend on the processing

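Of 380 values recomputed for 23 results (members' levels and fold changes, and counts of genes called over the 6 lists), 379 kept their direction and stayed within the replicate spread or, for counts, within 1.5 times, and 0 reversed. The exception was the level of Alpl in ASCs, 703, which was 773 when scaled to total counts. Leaving out 1 sample at a time moved the log2 fold change of Alpl in ASCs over ESCs from 0.02 (without ESC replicate 2) to 0.38 (without ESC replicate 1), and that of Alppl2 in ESC-ASCs over ASCs from -1.27 to -0.44. With the replicate number as a block, these 2 values were 0.15 and -0.94, and 27 genes of the lists were called in ASCs against ESCs, as without it. The numbers did not pair the samples: deviations of same-numbered samples correlated at 0.0539 on average (-0.114 to 0.332), and 8 of 18 samples correlated best with their own number. Of 117 calls of 25 genes checked singly, 13 fell below the threshold under at least 1 alternative and 0 reversed. Among genes named above these included Nt5e in EpiLCs, Enpp2 in ESC-ASCs and Gigyf2 in EpiLCs, all against ESCs. They also included Chrnd in ASCs and EpiLCs against ESCs and in ASCs against AFSCs, and Gm13012 in ASCs and AFSCs against ESCs. Enpp2 also lost its call under the DESeq2 test, and the others named here only when 1 sample was left out. Gigyf2 in EpiLCs was at -0.96 without EpiLC replicate 1 and -0.98 without ESC replicate 3. Depth limits Alppl2, Akp3 and Alpi.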
